A study of Mus musculus with 6 samples.

Results

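The 77 cytosolic ribosomal protein genes of the mouse, 46 of the large (Rpl) and 31 of the small (Rps) subunit, were followed in the dorsal hippocampus after knockdown of the long non-coding RNA Snhg11. They were taken by name: protein-coding GENCODE M21 genes whose symbols begin with Rpl or Rps and a number, p0 to p2 or a. S6 kinase, pseudogene and -like symbols were left out. They made up 77 of the 55401 genes counted. Bulk total RNA was sequenced from 6 wild type male mice. They were 4 months old and littermates of Ts65Dn mice, so their background was mixed, with C57BL/6 and C3H ancestry. The 3 Snhg11-ASO mice had received 50 μg of a gapmer antisense oligonucleotide against Snhg11 in the dentate gyrus of each hemisphere. The 3 Control-ASO mice had received a scrambled one. Tissue was taken 3 days later. The dissected tissue held more than the injected dentate gyrus, and the sequenced Control-ASO mice were injected too, so no uninjected level is given.

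The cytosolic ribosome reads mRNA into protein. Each of its subunits is built in the nucleolus from ribosomal RNA and, for most ribosomal proteins, a single copy of each. Many of these mRNAs begin with a stretch of C and T, the terminal oligopyrimidine motif, through which the kinase mTOR and the RNA-binding protein LARP1 set their translation. The genes are short, strongly transcribed in every cell type, often hosts of small nucleolar RNAs (snoRNAs) in their introns, and the source of many processed pseudogenes, intronless copies pasted elsewhere in the genome from the mRNA.

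The starts of 5 of the genes illustrate the stretch of C and T. Each line below gives 15 bases before and 15 bases from the RefSeq start on GRCm38.p6, 5′ to 3′ on the gene's strand, with the longest run of C or T that touches the 10 bases on either side of the start in capitals. They were picked after the values were seen, with Rplp0 because the results return to it.
Rpl7a, chr2:26910792-26910821, plus strand: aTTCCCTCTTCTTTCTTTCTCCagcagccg
Rpl18, chr7:45718056-45718085, plus strand: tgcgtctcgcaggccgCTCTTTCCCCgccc
Rps6, chr4:86857353-86857382, minus strand: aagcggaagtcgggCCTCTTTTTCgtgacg
Rplp2, chr7:141447636-141447665, plus strand: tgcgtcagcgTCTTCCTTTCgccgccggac
Rplp0, chr5:115559452-115559481, plus strand: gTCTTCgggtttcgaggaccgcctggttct

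Of the 57 members that matched a RefSeq start, 25 (43.9%) had a run of at least 8 such bases there, against 13.6% of the 16513 protein-coding genes matched. The run in Rplp0 was 5 bases long and ended before the start. The search read only the strand of the gene, and a start site that is annotated a few bases off moves the run in or out of the window. The median log2 fold change of the 25 members with such a run was 0.00, and that of the 32 without it was 0.06.

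Snhg11 (ENSMUSG00000044349), the target, served as a check of the labels. Its level was 551, 436 and 209 CPM in the Control-ASO mice and 139, 65.4 and 69.4 CPM in the Snhg11-ASO mice. CPM are counts scaled to 1000000 by each library's total and its TMM factor. The groups did not overlap (exact permutation test, two-sided, p = 0.1, which is the lowest that 3 against 3 can give). The log2 fold change was -2.13 ± 0.43 (standard error), with an adjusted p of 0.395 in the quasi-likelihood test of edgeR (Benjamini-Hochberg, all genes) and of 3.79e-05 in DESeq2.

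Libraries held 28951250 to 43997537 counts on genes, and each member had between 13 and 14220 counts in a library. The 12 neuronal markers examined, not all of them particular to granule neurons, were counted in every library. Markers of other cells differed between mice of the same group. The summed level of 12 choroid plexus markers ran from 43.9 to 1992 CPM in Control-ASO and from 77.4 to 1346 CPM in Snhg11-ASO. For 12 microglial markers it ran from 389 to 801 CPM in Control-ASO and from 322 to 909 CPM in Snhg11-ASO, and for 10 oligodendrocyte markers from 1687 to 3107 CPM and from 1713 to 3836 CPM. No gene of these lists was at 0 in any library. Snhg11-ASO replicate 1 stood apart: it was the highest of the 6 libraries for 6654 and the lowest for 6484 of the 19969 genes tested. Its microglial, astrocyte and oligodendrocyte markers differed from the Control-ASO mean by medians of -1.01, -0.76 and -0.98 on the log2 scale. In bulk tissue, fewer cells of a type and less RNA per cell cannot be told apart.

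Ribosomal protein mRNAs did not separate the groups. No member passed an adjusted p of 0.05 in edgeR or in DESeq2, where 0% of the 19969 genes tested in edgeR and 1.35% of the 18570 given an adjusted p in DESeq2 did. All 77 members entered the test. At an unadjusted p under 0.05 there were 2 members, 2.60% of them, against 8.11% of all genes tested: Rplp0 was the one with a higher level in Snhg11-ASO, where 3.68% of all genes were, and Rps29 the one with a lower level, where 4.43% were. With the replicate number as a block there was 1, Rps29, and without Snhg11-ASO replicate 1 there was also 1, Rps15a. Only Rplp0 had groups that did not overlap, against 15.4% of all genes tested in either direction, 7.73% in the higher and 7.7% in the lower direction.

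The median log2 fold change of the members was 0.04, beside 0.01 for all genes tested, and 46 of 77 members (59.7%) were above 0, beside 51.7% of all genes. It was 0.05 for the 46 large subunit genes and 0.02 for the 31 small subunit genes. The median rested on single mice: it was -0.03 without Control-ASO replicate 1, 0.09 without Control-ASO replicate 2, 0.01 without Control-ASO replicate 3, 0.07 without Snhg11-ASO replicate 1 or without replicate 2, and -0.04 without Snhg11-ASO replicate 3. The data bounded the change of most members, at a limit that is wide beside the median. The 95% interval of the log2 fold change lay within 0.5 of 0 on either side for 61 of the 77 members. It reached past this limit for 16, and 51 members had a log2 fold change under 0.1 in size.

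**Figure D1:**
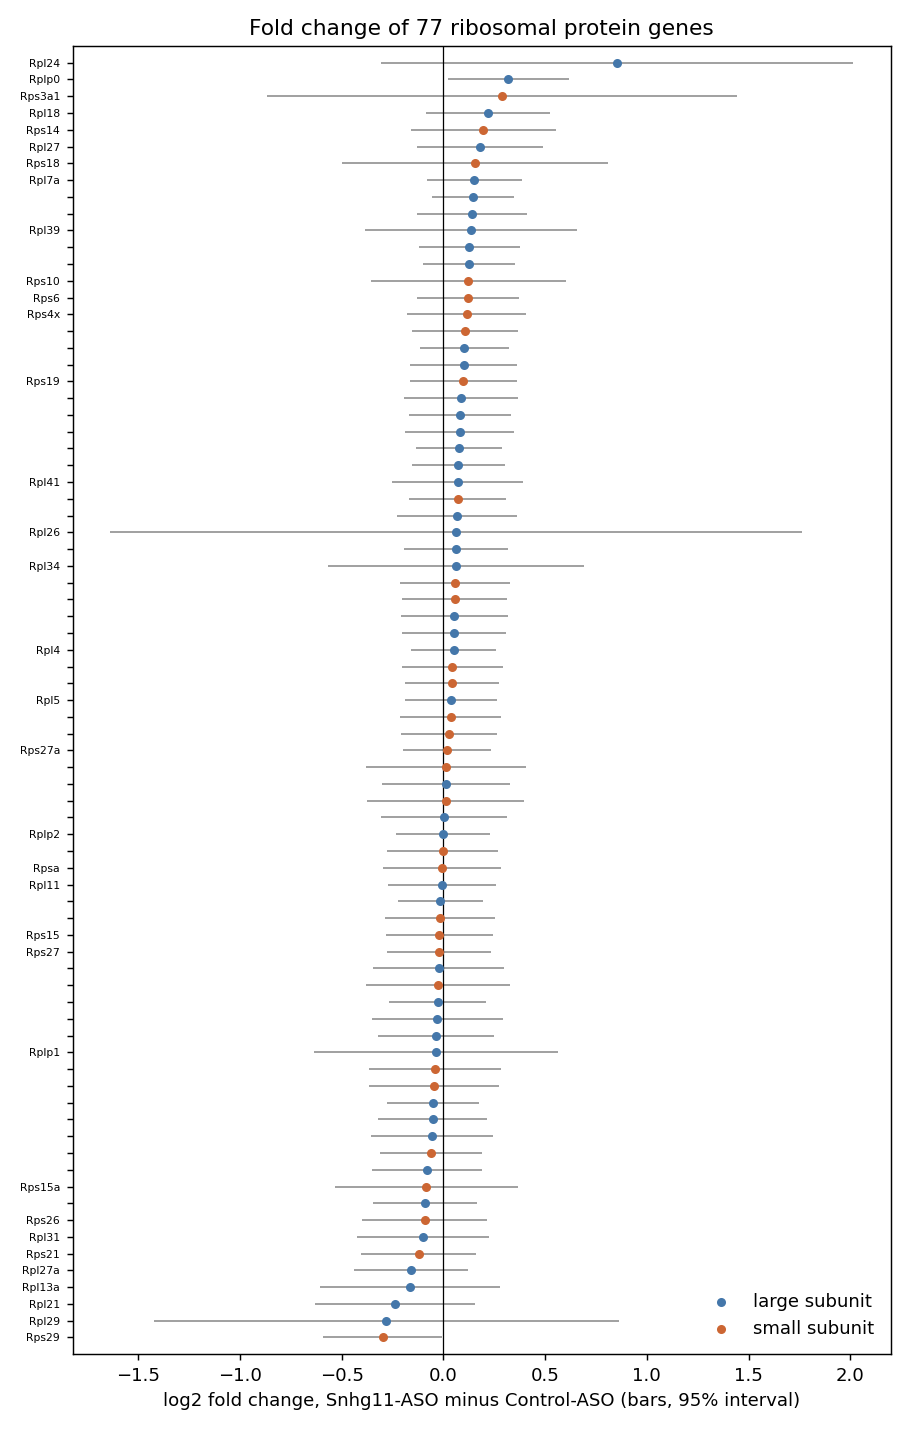
Log2 fold change (Snhg11-ASO minus Control-ASO, 3 mice per group) of the 77 ribosomal protein genes, sorted, with the 95% interval of the edgeR fit as bars and the genes described in the text labelled. The intervals of Rplp0 and Rps29 alone leave out 0, and those of Rpl26, Rpl24, Rps3a1 and Rpl29 are the widest.

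Differences between mice of the same group were as large as those between the groups. Ribosomal protein genes took 0.505%, 0.568% and 0.533% of the counts on genes in the Control-ASO mice and 0.527%, 0.507% and 0.596% in the Snhg11-ASO mice. The means were 0.535% ± 0.0312 (SD, n = 3) and 0.543% ± 0.0465 (SD, n = 3), and the groups overlapped. The difference of 0.00786 percentage points was -0.00724 without Control-ASO replicate 1 and -0.0184 without Snhg11-ASO replicate 3. Control-ASO replicate 2 and Snhg11-ASO replicate 3 were high across the board. In each of these mice 72 of the 77 members exceeded the Control-ASO mean on the log2 scale, by a median of 0.11 and 0.17. In Control-ASO replicate 1 only 8 did, with a median of -0.08. Snhg11-ASO replicate 3 was the highest of the 6 libraries for 45 members and Control-ASO replicate 2 for 19.

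Both subunits moved together between mice. The large subunit genes had a median of 0.10 in Control-ASO replicate 2 and 0.17 in Snhg11-ASO replicate 3, and the small subunit genes one of 0.12 and 0.15. These libraries also had the largest shares of read pairs mapped to several places, 6.09% and 6.10%, beside 4.61% to 5.31% in the other four. Their choroid plexus markers were the lowest of their group, at 43.9 and 77.4 CPM. Snhg11-ASO replicate 2 was also low for these markers, at 136 CPM, while its median over the 77 members was -0.04. The part of the mapping shares or of the choroid plexus markers in the ribosomal protein level was not tested.

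**Figure D2:**
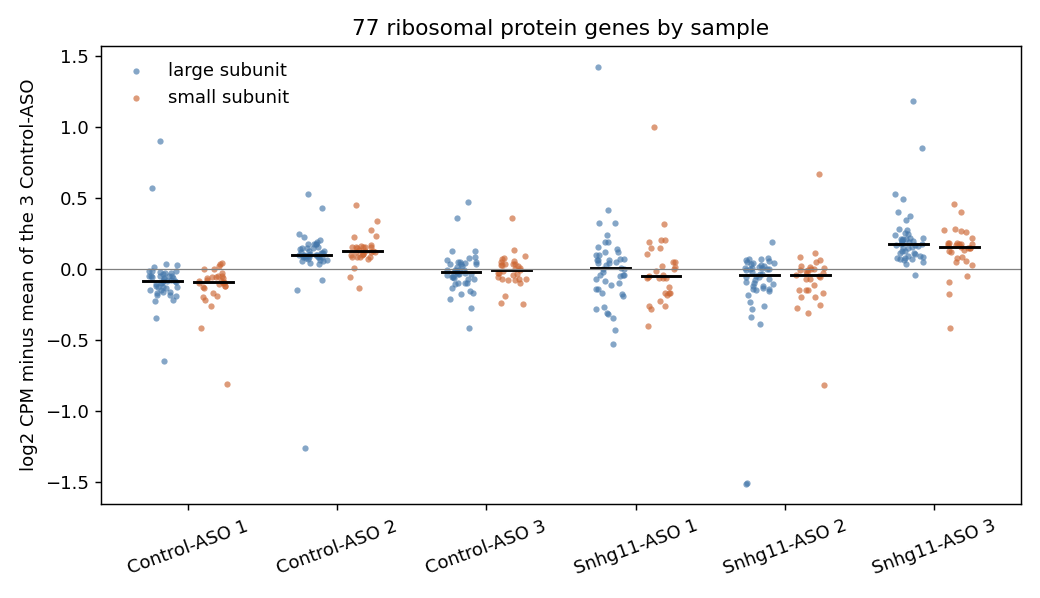
Log2 CPM of each of the 77 genes minus its mean in the 3 Control-ASO mice, by mouse, with large subunit genes left (blue), small subunit genes right (orange) and the median as a black line. Control-ASO replicate 2 and Snhg11-ASO replicate 3 lie above 0 for 72 of 77 genes each.

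Rplp0, Rplp1 and Rplp2 form the stalk of the large subunit, which recruits elongation factors. Rplp0 (ENSMUSG00000067274, chr5:115559467-115563727) was counted at 85.1, 113 and 103 CPM in the Control-ASO mice and at 133, 114 and 129 CPM in the Snhg11-ASO mice. All Snhg11-ASO mice lay above all Control-ASO mice, but Snhg11-ASO replicate 2 and Control-ASO replicate 2 differed by little. The log2 fold change was 0.32 ± 0.13 (95% interval 0.02 to 0.62, unadjusted p = 0.0385, edgeR adjusted p = 0.589). It was 0.20 without Control-ASO replicate 1 and 0.41 without Control-ASO replicate 2, and its unadjusted p was above 0.05 in 10 of the 19 alternatives, the replicate block among them. The other stalk genes did not share this difference in size: the log2 fold change was -0.04 ± 0.25 for Rplp1 and 0.00 ± 0.10 for Rplp2, whose levels were 55.5, 60.3 and 54.9 CPM in Control-ASO and 55.1, 53.1 and 62.1 CPM in Snhg11-ASO. Differences between genes were not tested.

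Rps29 (ENSMUSG00000034892, chr12:69157722-69159186), a small zinc-binding protein of the small subunit head, was counted at 30.1, 37.0 and 36.6 CPM in the Control-ASO mice and at 26.0, 27.8 and 30.5 CPM in the Snhg11-ASO mice. Control-ASO replicate 1 lay just below the highest Snhg11-ASO mouse, so the groups overlapped. Each Snhg11-ASO mouse lay below the Control-ASO mouse of the same number, but no source says that the numbers pair the mice. The log2 fold change was -0.30 ± 0.12 (95% interval -0.59 to -0.01, unadjusted p = 0.0468, edgeR adjusted p = 0.605). It was -0.40 without Control-ASO replicate 1, and its unadjusted p was above 0.05 in 10 of the 19 alternatives.

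Members with functions outside protein synthesis showed small differences. Rpl5 and Rpl11, which bind Mdm2 when ribosome assembly fails and so stabilise p53, had log2 fold changes of 0.04 ± 0.10 and -0.01 ± 0.11. Rpl5 was counted at 54.4, 63.0 and 61.4 CPM in Control-ASO and at 64.6, 58.1 and 60.8 CPM in Snhg11-ASO, and Rpl11 at 46.5, 52.2 and 46.6 against 47.0, 43.6 and 53.8 CPM. In both genes the groups overlapped. Rps6, the substrate of the S6 kinases and a common readout of neuronal activity through its phosphorylation, was counted at 36.6, 42.0 and 40.8 CPM in Control-ASO and at 45.8, 39.3 and 44.8 CPM in Snhg11-ASO, a log2 fold change of 0.12 ± 0.11. mRNA counts say nothing of its phosphorylation.

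Rps19, the gene most often mutated in Diamond-Blackfan anaemia, had 56.0, 64.8 and 58.2 CPM in Control-ASO and 61.4, 58.5 and 71.7 CPM in Snhg11-ASO. Rpsa, also known as the laminin receptor, had 128, 151 and 137 CPM against 118, 140 and 155 CPM. Their log2 fold changes were 0.10 ± 0.11 and -0.01 ± 0.12. Rps27a, made as a fusion with ubiquitin, had one of 0.02 ± 0.09, Rpl41, the smallest ribosomal protein, 0.07 ± 0.14, and the X-linked Rps4x 0.11 ± 0.12. None of these 5 had groups that did not overlap.

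At the upper end of the list stood Rpl24, Rplp0, Rps3a1, Rpl18, Rps14, Rpl27, Rps18 and Rpl7a, with log2 fold changes from 0.15 to 0.85, and at the lower end Rps29, Rpl29, Rpl21, Rpl13a, Rpl27a, Rps21, Rpl31 and Rps26, from -0.30 to -0.09. Rpl18 was counted at 44.6, 48.7 and 42.1 CPM in Control-ASO and at 56.4, 44.0 and 57.1 CPM in Snhg11-ASO, with an overlap through Snhg11-ASO replicate 2, and had a log2 fold change of 0.22 ± 0.13. Rpl21 was counted at 86.9, 99.8 and 97.9 CPM and at 65.5, 74.8 and 101 CPM, with an overlap through Snhg11-ASO replicate 3, and had a log2 fold change of -0.24 ± 0.17. It was -0.11 without Snhg11-ASO replicate 1 and -0.44 without Snhg11-ASO replicate 3. Rpl7a, Rpl27 and Rps14 had log2 fold changes of 0.15 ± 0.10, 0.18 ± 0.13 and 0.20 ± 0.15, and Rpl27a, Rps21, Rpl31 and Rps26 ones of -0.16 ± 0.12, -0.12 ± 0.12, -0.10 ± 0.14 and -0.09 ± 0.13. The value of Rps14 was 0.08 without Control-ASO replicate 3, 0.32 without Control-ASO replicate 2 and 0.09 when Snhg11-ASO replicate 3 was left out. The adjusted p of these 9 genes ran from 0.703 to 0.868 in edgeR.

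Levels per kb of mRNA exon were led by Rplp1 at 301, Rps21 at 228, Rpl4 at 200, Rps15 at 188 and Rps27 at 141 CPM per kb (means over the 6 mice). Rpl4 was also the most steadily counted member. Its levels of 285, 321, 301, 310, 303 and 326 CPM had a coefficient of variation of 4.83%, and its log2 fold change was 0.05 ± 0.09. Rps15 and Rps27 had log2 fold changes of -0.02 ± 0.11 and -0.02 ± 0.11. The lowest were Rpl24 at 1.16, Rps10 at 1.98, Rpl13a at 7.39, Rpl18 at 14.3 and Rps15a at 16 CPM per kb. The annotated exons of Rpl24, Rps10 and Rpl13a overlap those of other genes over 47.0%, 20.5% and 35.4% of their length, and the counting leaves out reads on more than 1 gene, so their values cover only part of their mRNA. Rpl24 was counted at 0.816, 0.476 and 0.386 CPM in Control-ASO and at 1.52, 0.502 and 1.01 CPM in Snhg11-ASO, so its log2 fold change of 0.85 ± 0.49 rests on few counts. It was 0.45 without Snhg11-ASO replicate 1. For Rpl18 and Rps15a, the exon length includes long exons of some transcripts, 3413 and 5395 bases in all, which lowers the level per kb. Rps15a had 88.5, 94.1 and 84.0 CPM against 111, 74.4 and 66.4 CPM, with the groups overlapping and a log2 fold change of -0.08 ± 0.19.

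Counting of most members was tight. The median within-group SD of log2 CPM was 0.14 over the members, 0.17 over the 9813 genes of at least 10 CPM and 0.26 over all genes tested. The coefficient of variation over the 6 mice was under 10% in 46 members, 10% to 20% in 23 and over 20% in 8. These 8 were Rpl26, Rpl24, Rps3a1, Rpl29, Rps18, Rplp1, Rpl34 and Rpl39, of which Rpl26, Rpl34 and Rpl39 are named after their values were seen. In Rpl26 the level differed 6.47-fold between mice, in Rps3a1 3.53-fold, in Rpl29 4.13-fold and in Rps18 2.12-fold, and in each the groups overlapped.

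Sequence shared with copies elsewhere lies in nearly every member. At least one 50-base window of the mRNA, the length of a read, also occurred in an annotated pseudogene for 76 of the 77 members. The share of windows that occurred in no annotated transcript of a gene elsewhere had a median of 64.1%. It was lowest in Rpl3, chosen after the values were seen, at 14.4%. Windows shared only with a gene that overlaps the member counted as its own. A read pair that fits the gene and a copy equally well is not counted for either. Of the 8 variable members 5 had under 50% of their windows to themselves (Rpl24, Rps3a1, Rpl29, Rps18 and Rplp1), as did 25 of all 77. The other 20 of these 25 had coefficients of variation from 6.12% to 11.2%.

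**Figure D3:**
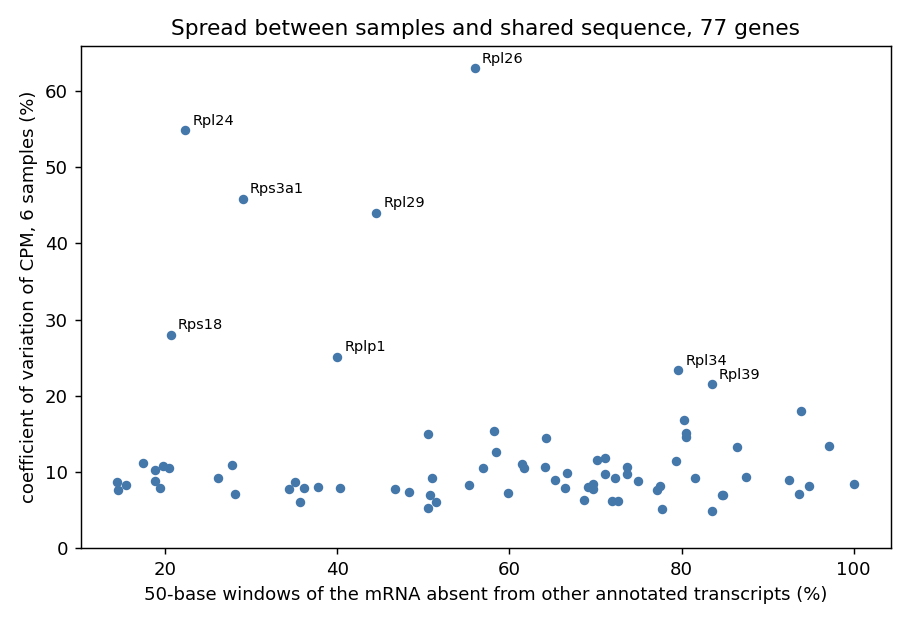
Coefficient of variation of CPM over the 6 mice (%) against a share of 50-base windows of the mRNA (%), 1 point per gene. The share is of windows that occur in no annotated transcript of a gene elsewhere in the genome. The 8 named genes are those above 20%, with Rpl26 highest at 63.0%.

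Levels of 4 variable members, chosen after the values were seen, are set beside those of their most counted copy. In each, the mouse with the lowest CPM on that copy had the highest CPM on the gene. The lines below show the 30 coding bases around the first well separated difference between each gene and its most counted copy, with the differing base in capitals. They are shown because a read that crosses such a base fits the gene and the copy differently. Reads on sequence that the copy lacks need no such base. Positions are counted from the A of the start codon, and the sequences come from the GENCODE M21 transcripts.
Rpl26, coding bases 162 to 191: agttcaggttgttcgCggacactacaaagg
Gm15772, same place: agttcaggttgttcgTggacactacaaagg
Rps3a1, coding bases 201 to 230: tgaagtgagccttgcTgatctacagaatga
Rps3a3, same place: tgaagtgagccttgcCgatctacagaatga
Rps18, coding bases 171 to 200: agaactcacggaggaTgaggtggagcgagt
Gm10260, same place: agaactcacggaggaCgaggtggagcgagt
Rplp1, coding bases 42 to 71: catcctgcacgacgaCgaggtgacggtcac
Gm11942, same place: catcctgcacgacgaTgaggtgacggtcac

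Rpl26 (chr11:68901583-68906989) and the processed pseudogene Gm15772 (chr5:3236431-3236868) differ at 2 of 435 coding bases, 1 of them C177T. Rpl26 was counted at 85.6, 19.1 and 59.0 CPM in the Control-ASO mice and at 50.7, 16.1 and 104 CPM in the Snhg11-ASO mice. Gm15772 had 39, 1769 and 823 counts in the former and 868, 1932 and 31 in the latter. The mice thus fell the same way in both groups, with 1 of each low for Rpl26 and high for the copy, 1 of each the reverse and 1 of each between. With the 4 copies of Rpl26 added to it, the levels were 87.6, 71.9 and 83.7 CPM in Control-ASO and 73.8, 62.4 and 105 CPM in Snhg11-ASO. The coefficient of variation was 63.0% for the gene alone and 18.5% with its copies.

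Rps3a1 (chr3:86137940-86142702) and the processed pseudogene Rps3a3 (chr13:108670603-108671397) differ at 9 of 792 coding bases, among them T216C. Rps3a1 was counted at 30.9, 74.0 and 69.6 CPM in Control-ASO and at 108, 30.7 and 74.4 CPM in Snhg11-ASO. Rps3a3 had 1137, 845 and 744 counts against 23, 1856 and 1076. Snhg11-ASO replicate 1, highest for the gene, was thus lowest for the copy. Adding the 6 copies gave 73.7, 102 and 94.2 CPM against 109, 80.2 and 102 CPM. The log2 fold change was 0.29 ± 0.49 for the gene alone and 0.11 with the copies.

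Rps18 (chr17:33951999-33956001) and Gm10260 (chr13:97760072-97760632), annotated as protein-coding, differ at 4 of 456 coding bases, among them T186C. Rps18 was counted at 30.4, 51.2 and 42.7 CPM in Control-ASO and at 36.1, 64.4 and 38.0 CPM in Snhg11-ASO, while Gm10260 had 573, 397 and 328 counts against 856, 5 and 1060. Another copy of Rps18, Gm11361, followed Gm10260, with 153, 116 and 83 counts against 205, 6 and 331. With its 5 copies, Rps18 stood at 55.4, 66.6 and 55.2 CPM against 64.2, 64.8 and 70.2 CPM. The coefficient of variation was 28.0% for the gene alone and 9.78% with its copies.

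Rplp1 (chr9:61913284-61914542) and the processed pseudogene Gm11942 (chr4:32964888-32965232) differ at 9 of 342 coding bases, among them C57T. Rplp1 was counted at 128, 200 and 128 CPM in Control-ASO and at 135, 114 and 196 CPM in Snhg11-ASO. Gm11942 had 348, 1 and 413 counts against 439, 1183 and 5. The 2 mice highest for Rplp1 were those with next to no counts on the copy. The copies held at most 20.4% of the counts on the gene and its copies. The coefficient of variation was 25.1% for the gene alone and 17.9% with its copies.

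**Figure D4:**
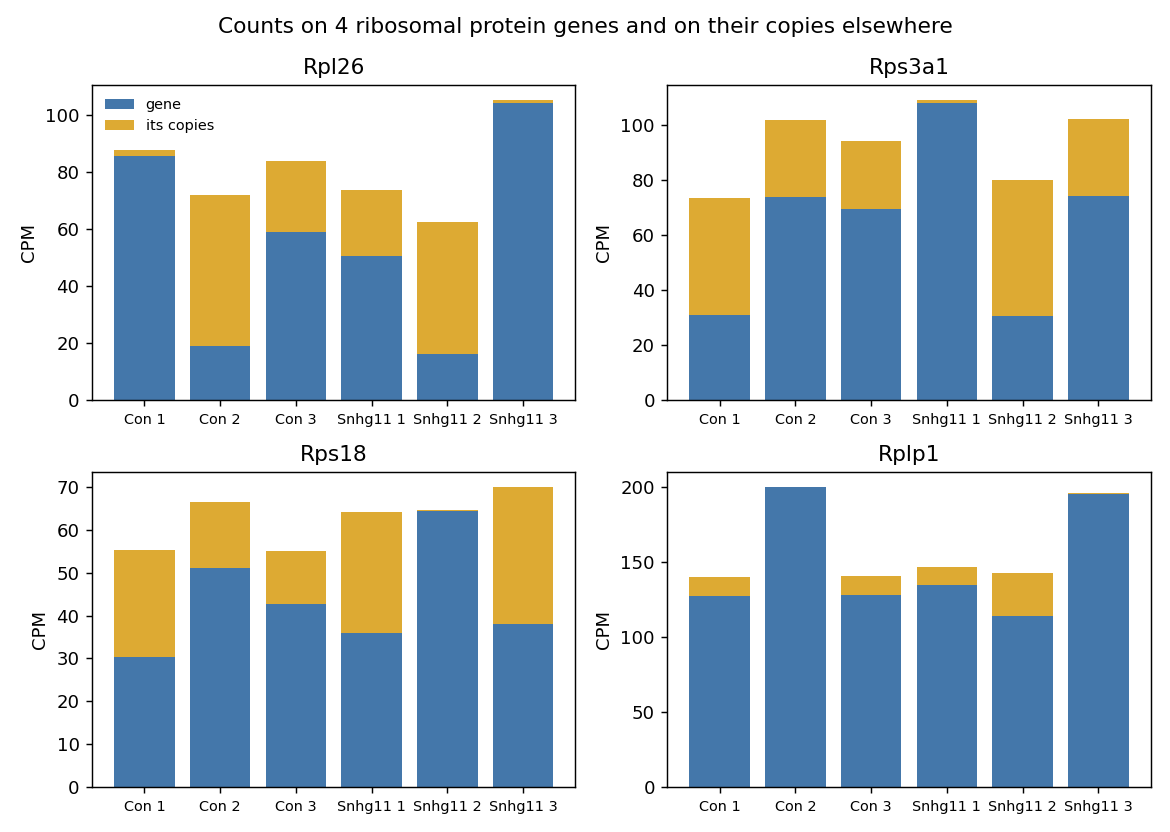
Stacked CPM of Rpl26, Rps3a1, Rps18 and Rplp1 (blue) and of their copies elsewhere (yellow) in each mouse, Control-ASO 1 to 3 (Con) and Snhg11-ASO 1 to 3. The copies took 73.4% and 74.2% of the Rpl26 counts in replicate 2 of each group and 2.25% and 1.18% in Control-ASO replicate 1 and Snhg11-ASO replicate 3.

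Adding the counts of 421 assigned copies to 70 members lowered the coefficient of variation in 54 of the 77 and left 3 above 20% (Rpl29, Rpl39 and Rpl24). The median log2 fold change was 0.03 with the copies added, and 0 members passed the threshold. Rplp0 and Rps29 were again those at an unadjusted p under 0.05. Over the 52 members with at least 50% of their windows to themselves, the median log2 fold change was 0.03.

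The members did not sort by whether they hold a snoRNA gene. Their median genomic span was 3289 bp, beside 25319 bp for the protein-coding genes tested. In 30 of them, snoRNA genes lay inside, 58 in all. The median log2 fold change was 0.03 for these 30 hosts and 0.04 for the other 47 members. Neither group held a member past the threshold.

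Genes that work with the ribosomal proteins were examined from lists. Rack1, a scaffold on the small subunit, and Fau, a ribosomal protein made as a fusion with a relative of ubiquitin, had log2 fold changes of 0.18 ± 0.10 and 0.12 ± 0.11. Of 7 genes tested from a list of -like genes, paralogs and a binding protein, 0 passed the threshold. The groups of 1 in the higher and 1 in the lower direction did not overlap, 28.6% of those tested against 15.4% of all genes tested. Rps27l, a relative of Rps27 induced by p53, was counted at 6.80, 8.35 and 7.33 CPM in Control-ASO and at 9.05, 8.88 and 12.1 CPM in Snhg11-ASO. These groups did not overlap, and the log2 fold change was 0.42 ± 0.18 (edgeR adjusted p = 0.618). Rps27rt, a retrogene, was at the other end with -0.48 ± 0.27 at under 1 CPM in each mouse.

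Among 32 translation factors, 28 had a log2 fold change above 0, with a median of 0.13, and 0 passed the threshold. At an unadjusted p under 0.05 there were 2, or 6.25% of the list, both higher in Snhg11-ASO. Of all genes tested, 3.68% were higher at that level and 8.11% differed in either direction. The 2 were Eif4a1 (0.30 ± 0.10), the mRNA helicase of the cap complex, and Btf3 (0.23 ± 0.10), of the nascent polypeptide-associated complex. Both are named after their values were seen. The groups of 9 did not overlap, all in the higher direction, which is 28.1% of the list against 7.73% of all genes. The ends of the list were Pabpc1, the poly(A)-binding protein, at 0.51 ± 0.23, and Eef1g, an elongation factor subunit, at -0.23 ± 0.16. The median difference from the Control-ASO mean was 0.21 in Snhg11-ASO replicate 1, 0.02 in replicate 2 and 0.12 in replicate 3. Without Snhg11-ASO replicate 1, the median log2 fold change was 0.07 and 27 of the 32 were above 0.

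Of 70 ribosome biogenesis genes, which make and process ribosomal RNA and assemble subunits, 60 were above 0, with a median of 0.12. None passed the threshold in edgeR, and 1 had an unadjusted p under 0.05 (Rrp15, 0.44 ± 0.18, named after its values were seen), which is 1.43% against 8.11% of all genes tested. The groups of 11 in the higher and 1 in the lower direction did not overlap, 17.1% of the list against 15.4% of all genes tested. By direction, the shares of all genes tested were 7.73% higher and 7.7% lower, so those of the list were mostly in the higher direction. The ends were Noc4l at 0.61 ± 0.35 and Polr1d at -0.35 ± 0.16. Here the median difference was 0.27 in Snhg11-ASO replicate 1 and 0.05 in both other Snhg11-ASO mice. Without Snhg11-ASO replicate 1, which also had the low glial markers given above, the median log2 fold change was 0.05 and 50 of the 70 were above 0. The part of the glial markers was not tested. Noc4l was counted at 25.7 CPM in replicate 1 and at 11.5 and 10.5 CPM in the others, beside 8.94 to 11.3 CPM in Control-ASO. Snhg11-ASO replicate 1 did not lead for the ribosomal proteins, where its median was -0.02.

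Of 17 genes of the mTOR pathway, LARP and Myc families, 14 were above 0, with a median of 0.08 and 0 past the threshold. Myc, which drives ribosome production, had 1.90, 2.59 and 2.43 CPM in Control-ASO and 10.5, 3.28 and 2.31 CPM in Snhg11-ASO, so its log2 fold change of 1.22 ± 0.56 came largely from Snhg11-ASO replicate 1 and was 0.27 without it. Without that mouse the median of the 17 genes was -0.01. Mycn was at the other end with -0.46 ± 0.55. The 77 mitochondrial ribosomal protein genes tested, of 78 listed, serve a separate ribosome. Of these, 28 were above 0, with a median of -0.04 and 0 past the threshold. Their ends were Mrps6 at 0.80 ± 0.44 and Mrpl34 at -0.33 ± 0.26.

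**Figure D5:**
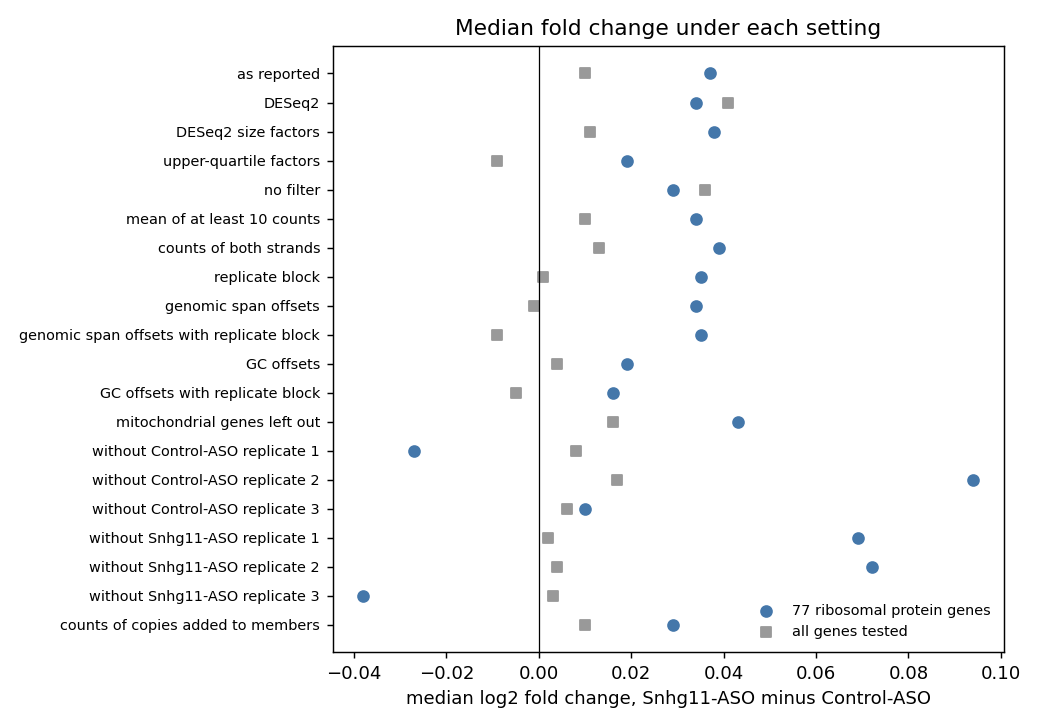
Median log2 fold change of the 77 ribosomal protein genes (blue circles) and of all genes tested (grey squares) for the reported fit and 19 other settings. The circles lie between -0.04 and 0.09, and only leaving out Control-ASO replicate 1 or Snhg11-ASO replicate 3 puts them below 0.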

How the data were processed

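Total RNA of the dorsal hippocampus of 6 mice was ribosome-depleted and sequenced as stranded 50-base read pairs. The authors aligned the reads to mm10 (GRCm38) with STAR 2.5.2a and deposited raw counts per gene, neither normalized nor pooled. The paper names Rsubread for counting, whereas the deposited layout is that of STAR's gene counts, in which pairs with several best places or on more than 1 gene are not counted. The 4 lines that name no gene were left out of library sizes; pairs on no exon were 33.5% to 42.2% and those with several places 4.61% to 6.10% of pairs. The paper set aside 1 unnamed Snhg11-ASO sample as an outlier, and all 6 were used here.

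Reverse-strand counts were used, since the kit predicts that strand. Positions and names came from GENCODE M21, which matched 55141 of 55401 identifiers. After filterByExpr (minimum count 10) and TMM scaling, 19969 genes were tested with edgeR 4.0.16's quasi-likelihood test (R 4.3.3, Benjamini-Hochberg adjusted p under 0.05). Standard errors were the size of the log2 fold change over the square root of F, and intervals used 6.99 degrees of freedom. Log2 CPM used a prior count of 2. Counts on a gene limit the precision by counting error, which intervals from replicates include.

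Copies were annotated genes that share at least 50 windows of 50 bases, and 20% of their exon length, with the mRNA of a member. The genes named were Snhg11, members past the threshold, the 8 members at each end of the fold changes, the 5 at each end of the level per kb, members with known other roles, and the gene at each end of each list. Others are said to be chosen after their values were seen. The members, the gene lists and the rule were chosen with earlier results of these data known. The labels name separate samples. Same-numbered samples of the 2 groups deviated together (correlations of 0.297, 0.179 and 0.103), so the replicate number was a block in alternative fits, while the values reported come from the fit without it. Control-ASO replicate 2 also correlated with Snhg11-ASO replicate 3, at 0.188, and no source says what a number marks. The alternatives were DESeq2 1.42.0, its size factors, upper-quartile factors, no filter, a mean of at least 10 counts, both strands, the replicate block, offsets for genomic span or GC content with and without the block, mitochondrial genes left out, and each sample left out. Adding copies, and leaving out members with under 50% of their windows to themselves, were chosen after seeing the data. The fits were tested on simulated data. Some items are not reported here, but every gene enters the counts and medians.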

Additional observations from a re-analysis of the deposited data

How the results depend on the processing

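No ribosomal protein gene passed the threshold under any of the 19 alternatives, and 0 to 2 genes of all those tested did, except in DESeq2, which called 251. The adjusted p of Snhg11 passed the threshold in DESeq2 alone, with a log2 fold change of -2.13 there, and the fold change ran from -2.56 to -1.83 with each sample left out. The count of members at an unadjusted p under 0.05, 2 as reported, was 0 in DESeq2 and with the genomic span offsets with or without the replicate block, and 1 without the filter, with both strands, with the GC offsets with or without the block, without mitochondrial genes and with the replicate block alone. With each sample left out it ran from 0 to 3. The count of members whose groups do not overlap, 1 as reported, was 2 with both strands or without mitochondrial genes, and 0 with the span or GC offsets, with or without the block. With each sample left out, which makes it 2 against 3, it ran from 2 to 15. Groups of 2 against 3 separate more easily, so the shares of all genes given for 3 against 3 do not apply to these counts. The median log2 fold change of the members stayed between 0.02 and 0.04 in the settings that kept all 6 samples and ran from -0.04 to 0.09 with each left out. It was below the median of all genes in DESeq2 (0.034 against 0.041) and without the filter (0.029 against 0.036). The same held without Control-ASO replicate 1 or without Snhg11-ASO replicate 3, and in the other settings it was above. For the share of counts, the difference ran from -0.0184 to 0.0259 percentage points. The replicate block changed no other call.

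Of 589 values of the 31 named members under the alternatives, 38 turned direction and 0 were called. The direction never turned for 18 members. Turned values with all samples were Rpl5 at -0.01 with the span offsets, alone or with the block, Rps15 at 0.01 and Rps27 at 0.02 and 0.01 with the same, Rps27a at 0.00 with upper-quartile factors, Rplp2 and Rpsa at 0.00 without mitochondrial genes and Rplp1 at 0.01 with the copies added. With a sample left out, values ran from -0.10 to 0.06 for Rpl11, -0.85 to 0.09 for Rpl29, -0.04 to 0.18 for Rpl41, -0.03 to 0.08 for Rpl5, -0.29 to 0.21 for Rplp1, -0.07 to 0.04 for Rplp2, -0.11 to 0.05 for Rps15, -0.34 to 0.06 for Rps15a, -0.16 to 0.33 for Rps18, -0.10 to 0.06 for Rps27, -0.04 to 0.06 for Rps27a, -0.15 to 0.65 for Rps3a1 and -0.10 to 0.09 for Rpsa. The causes were not tested. Windows found once in the whole genome were not run, and annotated transcripts took their place. For Rpl24, with 13 to 58 counts per library, the few counts limit the value.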
